A study of Mus musculus with 3 samples.

Results

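Granzymes are serine proteases that natural killer (NK) cells store in cytotoxic granules, and perforin is the pore-forming protein that lets them enter a target cell. The 6 genes described here are Gzma, Gzmb, Gzmc, Gzmk and Gzmm, which encode granzymes A, B, C, K and M, and Prf1, which encodes perforin. They were chosen by symbol from 25906 annotated genes, and each symbol matched 1 gene row. Granzymes are made as inactive precursors, are activated in the granule by the protease cathepsin C, and are held there on the proteoglycan serglycin until a contact with a target releases them. Granzyme A cleaves after basic residues, granzyme B cleaves after aspartate and triggers caspases, and granzymes C, K and M are less studied members. Mouse NK cells mature from CD27+ CD11b- cells through CD27+ CD11b+ cells to CD27- CD11b+ cells, where CD11b is the product of Itgam, and the most differentiated cells carry KLRG1 and CX3CR1.

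The data were single-cell RNA counts from NK1.1+ NKp46+ live cells sorted from lung and blood of wild-type female mice aged 9 weeks. One library was naive, its treatment being listed as not applicable, and the other 2 came from mice that had received 100000 PyMT mammary tumor cells into a vein 6 h or 14 days earlier. PyMT cells derive from a mouse mammary tumor driven by polyomavirus middle T antigen and seed metastases in the lung. Lung and blood cells of a time point shared 1 library and were told apart by 2 antibody hashtags. Several mice made up a group, and the files hold no mark of the mouse a cell came from. The hashtags were matched to tissues by the order in which the methods name them. Time point and library therefore cannot be told apart, no group had a second sample, and no test between groups was possible.

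The 6 groups held 3676 naive lung, 4367 naive blood, 4680 lung and 2746 blood cells at 6 h, and 3575 lung and 2069 blood cells at 14 days. Their summed counts of unique molecular identifiers (UMIs, 1 per captured transcript) ran from 16936897 to 35922737, with medians of 5909.5 to 7524 UMIs per cell. Ncr1, which encodes NKp46, was detected in 93.4% to 99.7% of the cells of a group, and Klrb1c, which encodes NK1.1, in 98.2% to 99.8%. Between 6 and 16 cell barcodes occurred in both libraries of a pair. Levels are given as CPM, the UMIs of a gene summed over the cells of a group and scaled to the same total of gene UMIs, and ratios are log2 values with 95% intervals that cover counting error only. Differences past 1.5-fold in either direction were counted, beside the share of all genes past the same fold. Counts of the 3′ end do not scale with transcript length, so levels of different genes are set side by side without a length correction.

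Prf1 (ENSMUSG00000037202) lay at chr10:61297833-61304680 on the plus strand of GRCm38, and Gzmm (ENSMUSG00000054206) at chr10:79689020-79695261 on the same strand. Gzma (ENSMUSG00000023132) at chr13:113093825-113100981 and Gzmk (ENSMUSG00000042385) at chr13:113171608-113225908 were neighbours on the minus strand, 70.6 kb apart. Gzmc (ENSMUSG00000079186) at chr14:56231441-56234656 and Gzmb (ENSMUSG00000015437) at chr14:56258838-56262260 lay 24.2 kb apart on the minus strand. The other granzymes of the chromosome 14 cluster were nearly silent. Gzme reached 7 UMIs and Gzmf 4 UMIs in a group, Gzmd and Gzmg did not pass 1 UMI, and Gzmn had 0 UMIs in every group. None of 451 windows of 50 bases from the last 500 bases of the Gzmb and Gzmc transcripts occurred in another of the 7 cluster genes, so reads could be told apart there.

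The 250 bases upstream of the transcription start are shown for the 3 abundant genes and for Gzmc, whose levels below differed most between groups. They were read from RefSeq entries of GRCm38.p6, 5′ to 3′ in the direction of the gene. Capitals mark matches on either strand to TGTGGT (RUNX factors), TGANTCA (AP-1) and TGACGT (cyclic AMP response element); GGTGTG (T-box factors) was searched as well. In the same window of 32851 entries, 14.05% held the RUNX letters, 16.28% the T-box letters, 6.749% the AP-1 letters and 6.469% the response element.
Gzma, chr13:113100982-113101231, minus strand: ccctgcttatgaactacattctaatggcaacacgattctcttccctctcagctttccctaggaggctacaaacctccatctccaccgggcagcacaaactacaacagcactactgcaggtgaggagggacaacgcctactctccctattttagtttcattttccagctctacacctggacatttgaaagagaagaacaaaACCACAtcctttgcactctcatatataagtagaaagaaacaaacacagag
Gzmb, chr14:56262335-56262584, minus strand: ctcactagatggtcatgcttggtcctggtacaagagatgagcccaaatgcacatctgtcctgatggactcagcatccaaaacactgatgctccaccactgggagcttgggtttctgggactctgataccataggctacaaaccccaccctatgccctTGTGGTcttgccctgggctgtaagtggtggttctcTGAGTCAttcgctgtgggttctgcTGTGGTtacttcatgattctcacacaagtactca
Gzmc, chr14:56234658-56234907, minus strand: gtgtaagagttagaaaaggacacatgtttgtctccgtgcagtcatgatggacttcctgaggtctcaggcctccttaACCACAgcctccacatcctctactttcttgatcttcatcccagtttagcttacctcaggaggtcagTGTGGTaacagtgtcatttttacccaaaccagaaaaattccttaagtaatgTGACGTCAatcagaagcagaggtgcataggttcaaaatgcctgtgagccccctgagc
Prf1, chr10:61297586-61297835, plus strand: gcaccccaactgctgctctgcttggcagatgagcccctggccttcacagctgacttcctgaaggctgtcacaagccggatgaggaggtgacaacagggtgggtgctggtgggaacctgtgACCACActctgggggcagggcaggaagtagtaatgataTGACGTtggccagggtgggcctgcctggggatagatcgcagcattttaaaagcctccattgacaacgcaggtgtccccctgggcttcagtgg
Gzma held 1 RUNX match, 50 bases before the start. Gzmb held 2 RUNX matches, 93 and 34 bases before it, with an AP-1 match between them at 58 bases. Gzmc held 2 RUNX matches, at 174 and 108 bases, and the palindrome TGACGTCA, which reads as the response element on both strands at 57 and 55 bases. Prf1 held 1 RUNX match at 130 bases and 1 response element at 92 bases. The nearly silent cluster genes Gzmf and Gzmg each held 2 RUNX matches and the same palindrome, so the palindrome does not set Gzmc apart. Gzmd and Gzme each held 2 RUNX matches. Of the other described genes, Gzmk held 1 T-box match and the 2 listed starts of Gzmm held 1 RUNX and 1 T-box match. These are matches of letters only.

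Gzma was the fourth most abundant gene in all 6 groups. Its level was 11315 CPM in naive lung, 10882 in naive blood, 11619 in lung at 6 h, 11292 in blood at 6 h, 9435 in lung at 14 days and 13978 in blood at 14 days. The 2 groups at 14 days were the lowest and the highest, with intervals of 9400 to 9471 and 13922 to 14034 CPM, while the other 4 lay between 10882 and 11619 CPM. Prf1 was at 1380 CPM in naive lung, 1220 in naive blood, 1364 and 1248 in lung and blood at 6 h, 790 in metastatic lungs at 14 days and 1235 in blood at 14 days. The metastatic lungs again had the lowest level, apart from the other 5 groups. Gzmb was at 1070 CPM in naive lung, 864 in naive blood, 1240 and 1010 in lung and blood at 6 h, and 1222 and 1375 in lung and blood at 14 days. Its lowest group was naive blood and its highest was blood at 14 days, and the intervals of the 2 lung groups after tumor cell injection overlapped.

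The other granzymes were sparse. Gzmm was at 9.08 CPM in naive lung, 11.8 in naive blood, 12.5 and 15.4 in lung and blood at 6 h, 2.87 in lung at 14 days and 8.62 in blood at 14 days. Gzmc was at 2.81 CPM in naive lung, 1.97 in naive blood, 4.68 and 5.93 in lung and blood at 6 h, 74.1 in lung at 14 days and 6.08 in blood at 14 days. Gzmk was at 1.53 CPM in naive lung, 2.54 in naive blood, 2.06 and 1.72 in lung and blood at 6 h, 11.2 in lung at 14 days and 3.07 in blood at 14 days. For all 3 the metastatic lungs stood outside the range of the other groups, above it for Gzmc and Gzmk and below it for Gzmm. Together the 6 genes took 1.15% of all UMIs in metastatic lungs and 1.66% in blood at 14 days, with the other groups between 1.30% and 1.42%, and Gzma made up 81.6% to 84.2% of that share.

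**Figure D1:**
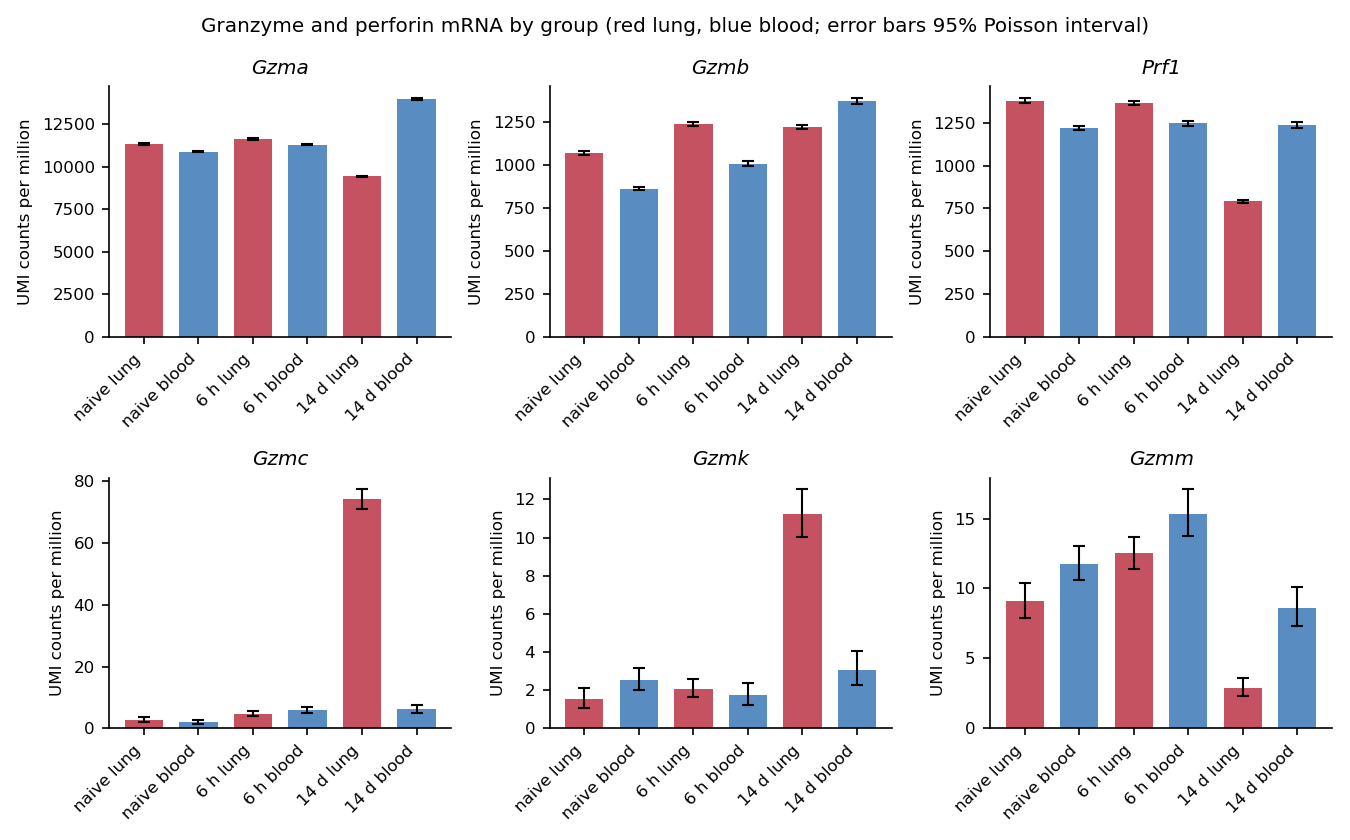
Level of each gene in the 6 groups in CPM, with exact Poisson 95% intervals, as bars from 0 on a separate axis for each gene. In lung at 14 days Gzma (9435 CPM), Prf1 (790 CPM) and Gzmm (2.87 CPM) had their lowest level, and Gzmc (74.1 CPM) and Gzmk (11.2 CPM) their highest.

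The effect of recent tumor cell arrival was addressed by comparing 6 h with naive cells of the same tissue. At 6 h the abundant genes were close to naive. In lung the log2 ratio was 0.04 for Gzma, 0.21 for Gzmb (95% CI 0.19 to 0.23) and -0.02 for Prf1, and in blood it was 0.05, 0.22 (0.20 to 0.25) and 0.03. Only Gzmc was past 1.5-fold, with 0.73 (0.31 to 1.17) in lung and 1.59 (1.14 to 2.06) in blood, and it rested on 168 against 66 and on 131 against 59 UMIs. In lung it was within the fold (0.56) when each cell's own CPM was averaged. In lung 0.231% and in blood 0.153% of genes of at least 50 CPM were past that fold, but among genes of 1 to under 50 CPM, where Gzmc belongs, the shares were 5.77% and 6.26%. The ratios for Gzmk were 0.43 (-0.17 to 1.04) in lung and -0.56 (-1.16 to 0.02) in blood, with intervals that included 0. Gzmm had 0.46 (0.22 to 0.70) and 0.38 (0.16 to 0.60).

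At 14 days, when lungs held metastases, 4 of the 6 genes were past 1.5-fold in lung. Gzmc was 26.4-fold higher than in naive lung (log2 4.72, 4.37 to 5.10) and Gzmk 7.31-fold higher (2.87, 2.37 to 3.41). Gzmm was 3.16-fold lower (-1.66, -2.05 to -1.28) and Prf1 1.75-fold lower (-0.80, -0.83 to -0.78). Gzma had a ratio of -0.26 (-0.27 to -0.25) and Gzmb of 0.19 (0.17 to 0.22). Of all genes of at least 50 CPM 17.9% were past the fold in this comparison, 4.47% higher and 13.4% lower, and of genes of 1 to under 50 CPM, where Gzmk and Gzmm belong, 23.5% were, 8.93% higher and 14.5% lower. Of the 4 described genes of at least 50 CPM 1 was higher and 1 lower, and Gzmk and Gzmm were among the less abundant ones. The higher one, Gzmc, was at 2.81 CPM in naive lung and passed 50 CPM only in lung at 14 days (74.1 CPM). Its call was therefore fixed by the filter and cannot be set against the 4.47%. The 6 genes were chosen with earlier results of these data known, so the count of 4 is a description. The median gene was itself at -0.25. Without the 5% of cells with the most UMIs the ratio of Gzmc was 3.20. Relative to the median Gzma was at -0.01, Gzmb at 0.45 and Prf1 at -0.55, which is within 1.5-fold. Some of 7 genes of dissociation stress also differed between these groups. Jun was at 217 CPM against 106 in naive lung, Hspa1a at 22.1 against 1.15 and Hspa1b at 41.9 against 3.20. Egr1 (29.7 against 23.8) and Dnajb1 (62.7 against 57.1) differed less. Junb was lower (904 against 1058), Fos was at 77.0 against 80.3, and the 7 genes summed to 1354 against 1330 CPM. At least 3 of the 7 stress genes were detected in 42.6% of cells, against 25.5%. The part of these genes in the results was not tested.

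In blood at 14 days Gzmb was 1.59-fold higher than in naive blood (log2 0.67, 0.64 to 0.70), and Gzmc, with 103 against 59 UMIs, had a ratio of 1.63 (1.15 to 2.11). Here 3.59% of genes of at least 50 CPM were past 1.5-fold, with 0.564% higher, and 13.4% of genes of 1 to under 50 CPM. Gzma was at 0.36 (0.35 to 0.37), and at 0.56 relative to the median gene of -0.20. Prf1 was at 0.02 (-0.01 to 0.04), Gzmk at 0.28 (-0.26 to 0.80) and Gzmm at -0.45 (-0.74 to -0.17). Leaving out the 10 cells richest in Gzmc from each group, an alternative chosen after seeing the data, brought its ratio in blood to 0.97. Both comparisons with naive blood share those naive cells, as do both with naive lung.

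**Figure D2:**
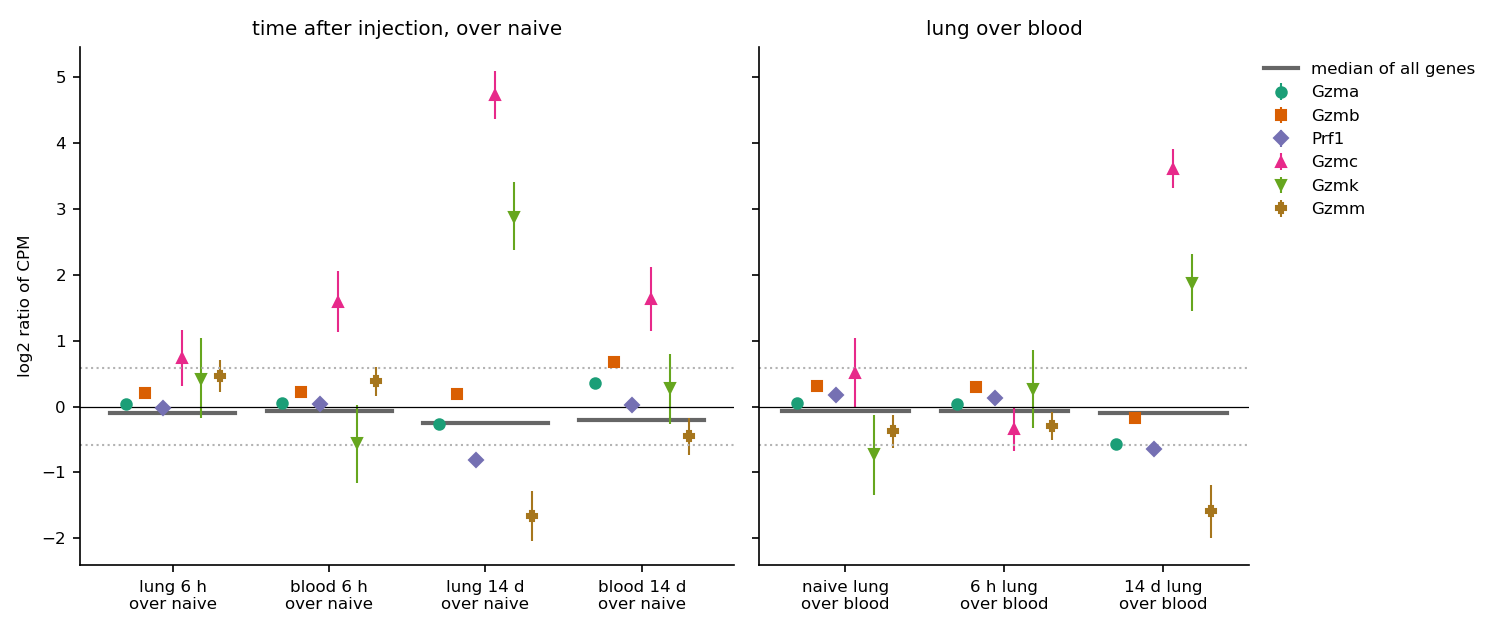
Log2 ratio of each gene in the 7 comparisons, with exact conditional binomial 95% intervals, dotted lines at 1.5-fold and a grey bar at the median of all genes. In lung at 14 days over naive Gzmc (4.72), Gzmk (2.87) and Gzmm (-1.66) lie far from 0. The same genes do so in lung over blood at 14 days (3.61, 1.87 and -1.58). In blood over naive Gzmc is at 1.59 at 6 h and 1.63 at 14 days.

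Lung and blood cells of 1 library were compared with each other to see where tissue and time point met. In naive mice lung and blood were near each other for the abundant genes, with log2 ratios of 0.06 for Gzma, 0.31 for Gzmb and 0.18 for Prf1. Gzmk was past 1.5-fold lower in lung (-0.72, -1.34 to -0.13), on 36 against 76 UMIs, beside 9.88% of genes of at least 50 CPM and 19.5% of the less abundant genes past that fold. Its ratio was -0.52 with at least 99% of tag counts from 1 hashtag, -0.52 with each cell's own CPM averaged and -0.40 without cells with T cell markers, each within the fold. Gzmc (0.51, -0.01 to 1.05) and Gzmm (-0.38, -0.63 to -0.13) were within it. At 6 h none of the 6 genes was past 1.5-fold, beside 8.99% and 18.8% of genes, with Gzma at 0.04, Gzmb at 0.30, Prf1 at 0.13 and Gzmc at -0.34 (-0.68 to -0.0026). At 14 days 4 of the 6 were past it, beside 9.46% and 20.6% of genes, with the same lung cells as in the comparison with naive lung. Gzmc again passed 50 CPM only in lung, so its call was fixed by that filter. Gzmc was 12.2-fold higher in lung (3.61, 3.32 to 3.91) and Gzmk 3.65-fold higher (1.87, 1.44 to 2.32), while Gzmm (-1.58, -1.99 to -1.18) and Prf1 (-0.64, -0.67 to -0.62) were lower. Without the 5% of cells with the most UMIs Gzmc was at 2.06, and over the other ways of processing the data Gzmk ranged from 1.86 to 2.46. The Prf1 ratio was within the fold under 4 alternatives, at -0.55 relative to the median gene and at -0.57 in the others. Gzma was at -0.57 (-0.57 to -0.56), just within the fold, and Gzmb at -0.17 (-0.19 to -0.15).

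To compare single cells at equal depth, each cell was thinned to 3000 UMIs, leaving out 6 to 86 shallower cells per group. Gzma filled almost every cell. The median cell held 35 Gzma UMIs in naive lung, 34 in naive blood, 36 and 35 in lung and blood at 6 h, 29 in lung at 14 days and 43 in blood at 14 days. The lower tail differed more than the median, since 10% of cells had at most 12 to 17 UMIs in 5 groups and at most 3 UMIs in metastatic lungs. The variance over the mean was 16.2 there, against 7.90 to 10.4 elsewhere. At least 30 UMIs of Gzma were found in 48.6% of cells in metastatic lungs and in 75.4% in blood at 14 days, with 60.2% to 64.6% in the other groups. Presence alone says little for Gzma, because free RNA, at the limit set by markers of other cell types, could place a Gzma UMI in 65.6% to 98.5% of cells.

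Gzmb was detected in 79.1% of naive lung, 71.8% of naive blood, 83.9% and 75.1% of lung and blood cells at 6 h, 69.9% of lung cells at 14 days and 81.9% of blood cells at 14 days. Metastatic lungs had the smallest share of cells with Gzmb though not the lowest level, and their interval (68.4% to 71.4%) overlapped that of naive blood (70.4% to 73.1%). The variance over the mean was 10.5 in these lungs, against 4.64 to 6.40 elsewhere, and the richest 5% of cells held 31.3% of the Gzmb UMIs, against 21.6% to 26.1%. Prf1 was detected in 72.7% of cells in metastatic lungs, against 89.1% to 93.9% in the other groups, so fewer cells had a Prf1 transcript at this depth. Before thinning, free RNA at its limit could place a Gzmb UMI in 12.6% to 42.2% of all cells of a group and a Prf1 UMI in 8.63% to 35.7%. At that depth 81.2% to 93.3% of cells had Gzmb and 87.0% to 98.9% had Prf1. All 3 abundant genes were found together in 58.0% of cells in metastatic lungs and in 67.6% to 79.8% elsewhere, and cells with none of the 3 made up 3.11% and 0.32% to 0.92%.

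**Figure D3:**
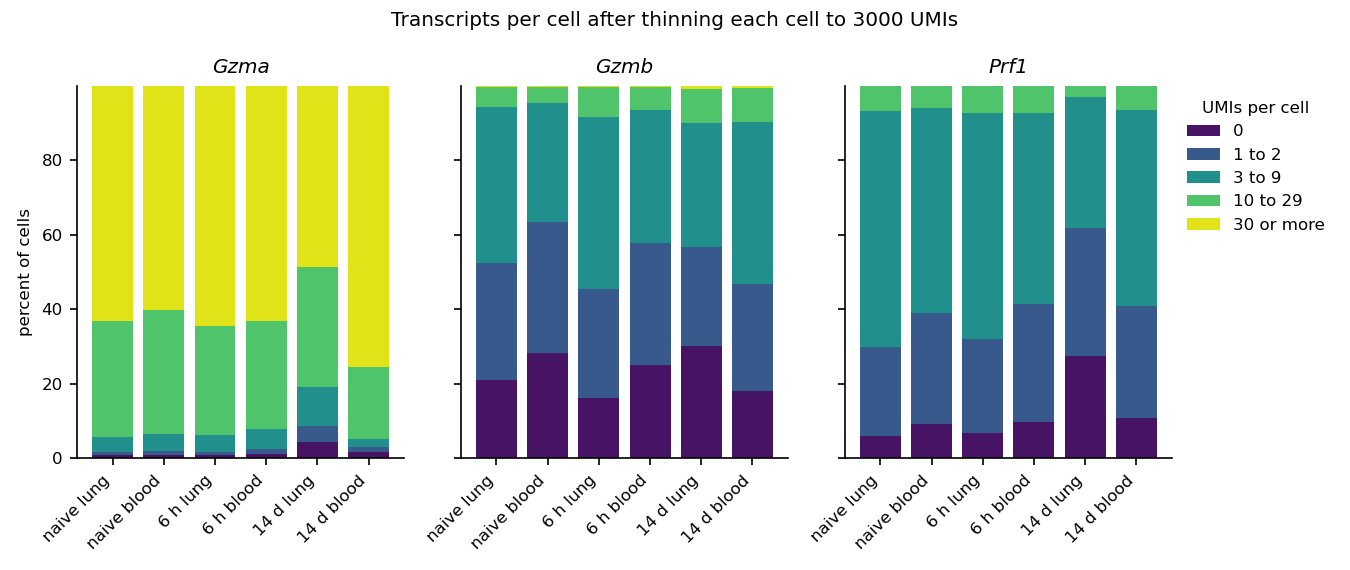
Share of cells by the number of UMIs of Gzma, Gzmb and Prf1 per cell after thinning to 3000 UMIs, for the 6 groups. In lung at 14 days fewer cells reached 30 Gzma UMIs (48.6%), and fewer had any Gzmb (69.9%) or Prf1 (72.7%), than in the other groups, with overlapping intervals for Gzmb in naive blood.

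Gzmc sat in few cells. After thinning it was found in 3.39% of cells in metastatic lungs and in 0.44% to 1.16% elsewhere. In those other groups free RNA could place a Gzmc UMI in 0.05% to 0.76% of all cells before thinning. Of the 2088 Gzmc UMIs in metastatic lungs, 8 of 3575 cells held 50%, the 39 cells with at least 10 UMIs held 82.3%, and 1 cell held 219. Without the 10 richest cells the level was 33.7 CPM, against 1.00 to 2.96 CPM in the other groups treated alike. Gzmk was spread instead. It was found in 2.88% of thinned cells in metastatic lungs and in 0.42% to 0.68% elsewhere, and no cell of any group had more than 8 UMIs. Gzmm was found in 0.65% of thinned cells in metastatic lungs and in 2.20% to 3.41% in the other groups.

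The position of a cell along the maturation path was taken from detection of Cd27 and Itgam in its full counts, and the abundant genes rose along it in each group. In naive lung Gzma was at 5794 CPM in Cd27+ Itgam- cells, 9037 in Cd27+ Itgam+ cells, 12504 in Cd27- Itgam+ cells and 13878 in cells with both Klrg1 and Cx3cr1, a class that overlaps the others. Prf1 rose from 712 through 1096 and 1526 to 1764 CPM, and Gzmb from 455 through 677 and 1214 to 1375 CPM. The same order held for these 3 genes in all 6 groups, also when cells were split on thinned counts. Gzmm ran the other way in 5 groups, from 18.9 through 13.5 and 5.93 to 4.91 CPM in naive lung and from 31.2 through 19.2 and 9.28 to 9.12 CPM in blood at 6 h. In metastatic lungs it was low in each class, at 3.08, 3.60, 2.86 and 3.31 CPM. The whole group held 81 Gzmm UMIs there, so each class rested on few. Deeper cells are more often scored positive for a marker, so these classes also differ in depth.

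**Figure D4:**
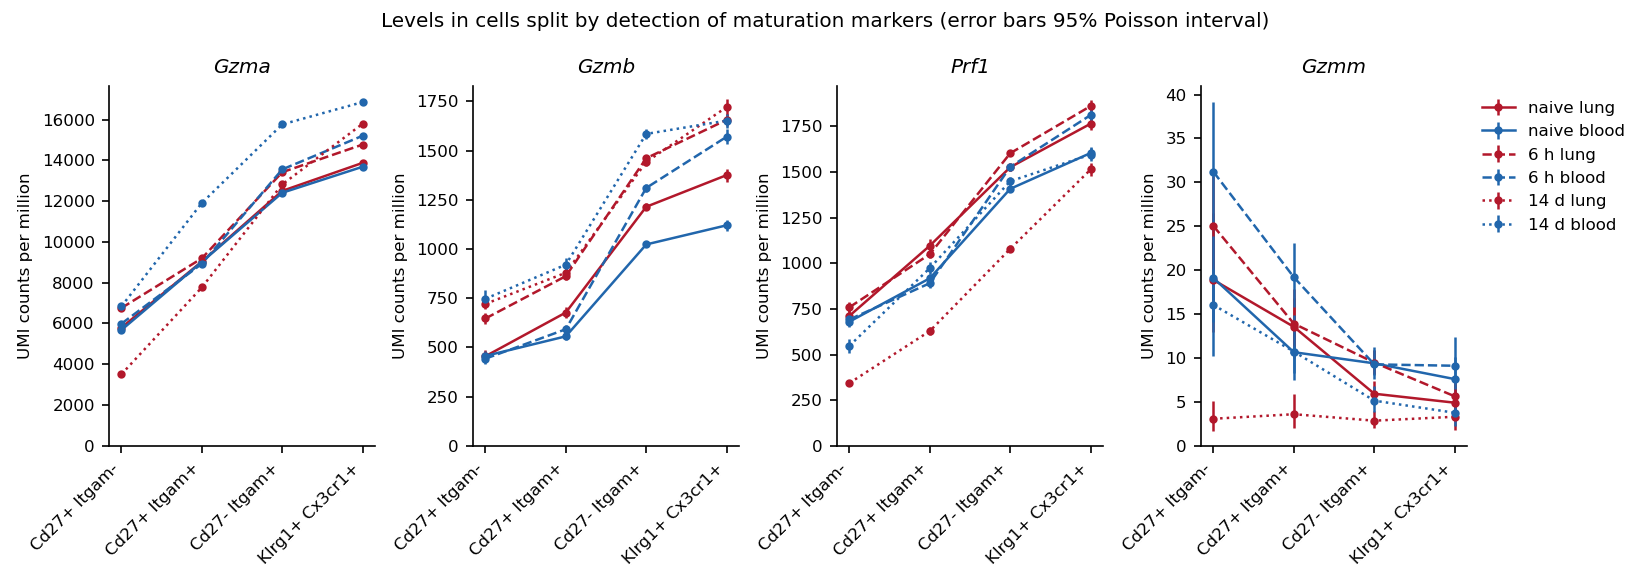
Level of Gzma, Gzmb, Prf1 and Gzmm in CPM in cells split by detection of Cd27 and Itgam and in Klrg1+ Cx3cr1+ cells, for each group. Gzma, Gzmb and Prf1 rise from left to right in all groups. Gzmm is flat only in lung at 14 days (2.86 to 3.60 CPM), where the whole group held 81 Gzmm UMIs.

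Within these classes the difference between metastatic and naive lungs was uneven. For Prf1 the log2 ratio was -1.05 in Cd27+ Itgam- cells, -0.80 in Cd27+ Itgam+ cells, -0.50 in Cd27- Itgam+ cells and -0.22 in Klrg1+ Cx3cr1+ cells. Gzma gave -0.72, -0.22, 0.04 and 0.19 in the same order and did not fall in the last 2 classes. In Cd27- Itgam- cells, where neither marker was detected, Prf1 was at -1.03 and Gzma at -0.43. Gzmb gave 0.66, 0.38, 0.25 and 0.32, and 0.22 in Cd27- Itgam- cells. In cells with at least 3 UMIs of Emb, which the study lists for its less differentiated NK cells, the ratios were -1.45 for Prf1, -1.10 for Gzma and -0.04 for Gzmb. Emb also differed by tissue, with log2 ratios of lung over blood of 2.41 in naive mice, 2.42 at 6 h and 2.66 at 14 days. In lung it was lower at 14 days than in naive mice (-0.43), with the median gene at -0.25. How mature the Emb-high cells were was not tested. The classes themselves shifted in lung, from 240 to 483 Cd27+ Itgam- cells, from 495 to 449 Cd27+ Itgam+ cells, from 2265 to 1679 Cd27- Itgam+ cells and from 676 to 964 Cd27- Itgam- cells. With the 14-day cells weighted to the naive class shares, an alternative chosen after seeing the data, Prf1 in lung was at -0.63, Gzma at -0.08, Gzmb at 0.27, Gzmc at 4.28, Gzmk at 2.87 and Gzmm at -1.64. In blood at 14 days Gzmb was higher in all 4 classes, by 0.71, 0.73, 0.63 and 0.56, and Gzma by 0.27, 0.40, 0.35 and 0.30.

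Several classes of cells were then compared inside the metastatic lungs. Emb-high cells (669) had 3249 CPM of Gzma and 432 of Gzmb, with a log2 ratio of -1.66 over the rest of the group for Prf1, and cells with both Itga1 and Pmepa1 (605), genes linked to tissue residency and TGF-β signalling, had 4884 CPM of Gzma, 529 of Gzmb and 297 of Prf1. Both lay well under the whole group. Lower still were 77 cells with at least 3 of 5 markers of type 1 innate lymphoid cells (ILC1), namely Tmem176a, Tmem176b, Cxcr6, Itga1 and Il7r. They had 1199 CPM of Gzma, 128 of Prf1 and 140 of Gzmb. Those 77 cells had no Gzmm UMI, which says little, as 69 of all 3575 cells had one. Their Gzmc was at 653 CPM. In the whole group 8 cells held 50% of the Gzmc UMIs, so this level and those that follow can rest on a few cells. Gzmc was at 188 CPM in Emb-high cells, 124 CPM in Itga1+ Pmepa1+ cells and 3.55 CPM in Klrg1+ Cx3cr1+ cells. The summed level of the 5 ILC1 markers was 134 CPM in metastatic lungs and 37.3 to 90.5 CPM in the other groups. In metastatic lungs Itga1 alone made up 70.8 CPM, against 31.5 in blood at 14 days, while Cxcr6 was at 4.72 against 15.3. Cells with at least 3 of the 5 markers made up 2.15% of metastatic lung cells and 2.80% of blood cells at 14 days. The part of such cells in the result was not tested. Cells with both Ccl3 and Ccl4 (1251), which encode chemokines of activated NK cells, had 12128 CPM of Gzma, 1129 of Prf1 and 1812 of Gzmb.

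Of the classes examined in metastatic lungs, Gzmb was highest in cells with at least 3 of 5 interferon-induced genes (Isg15, Ifit1, Ifit3, Irf7 and Mx1). These 211 cells had 3039 CPM of Gzmb against 1081 in the rest of the group, a log2 ratio of 1.49 (1.45 to 1.53). Their Gzma, at 7273 CPM, and their Prf1, at 506 CPM, were not above the rest (log2 -0.40 and -0.68), so the 3 genes parted in these cells. Split on thinned counts, 93 such cells had 3454 CPM of Gzmb and a ratio of 1.58. In lung at 6 h 52 cells met the rule, with 1540 CPM of Gzmb and a ratio of 0.32, and the other groups had fewer than 50 such cells. The summed level of the 5 genes was 171 CPM in metastatic lungs and 66.4 to 84.1 CPM elsewhere.

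**Figure D5:**
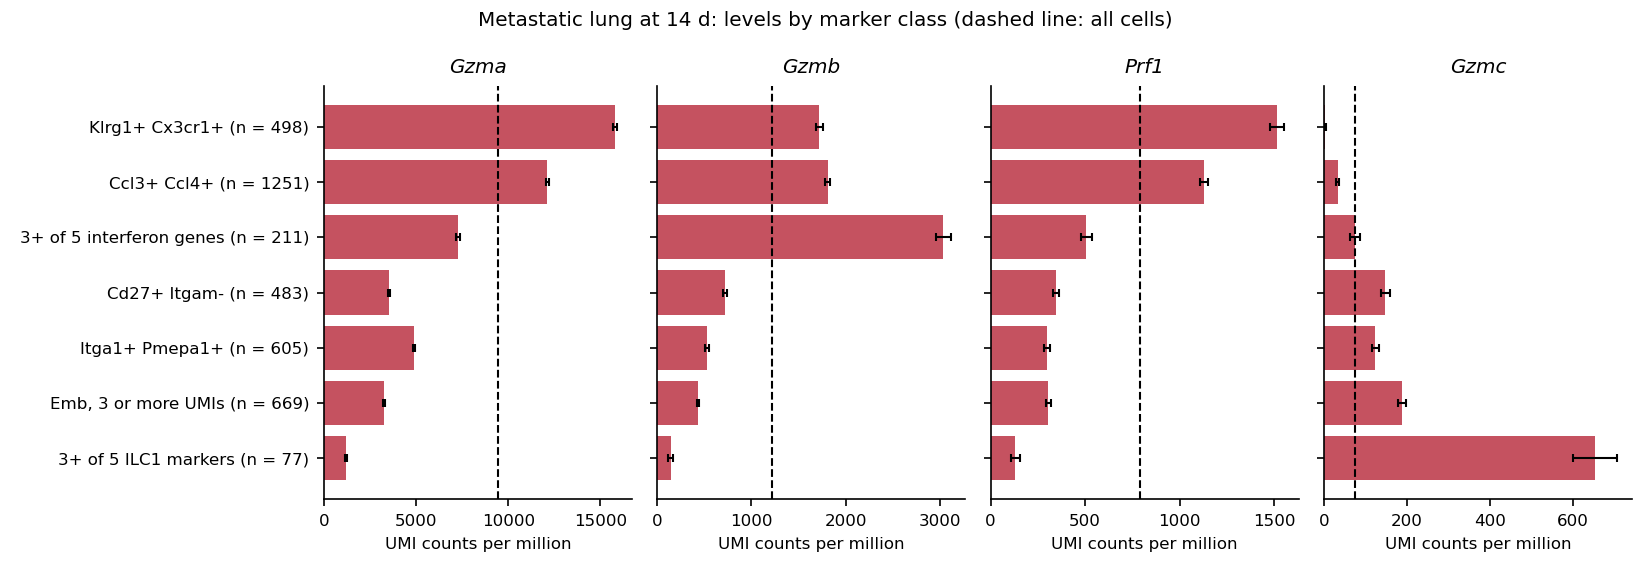
Levels of Gzma, Gzmb, Prf1 and Gzmc in CPM (bars from 0, exact Poisson 95% intervals) in overlapping classes of cells from lung at 14 days, with a dashed line at the level of all its cells. Gzmb peaks in cells with interferon-induced genes (3039 CPM). Gzmc peaks in cells with ILC1 markers (653 CPM), where Gzma (1199 CPM) and Prf1 (128 CPM) are lowest. This Gzmc level can rest on a few cells, as 8 cells of the group held 50% of its Gzmc UMIs.

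Cells rich in Gzmc were set beside cells without it for their other granule genes. In metastatic lungs 78 cells had at least 3 Gzmc UMIs and 3365 had none. Gzma was at 2315 CPM in the first and 9894 in the second (log2 -2.10), Prf1 at 358 against 818 (-1.19), and Gzmb at 1106 against 1208 (-0.13). Of the 78 cells 61.5% were Emb-high, against 17.3%, and 19.2% had at least 3 ILC1 markers, against 1.66%. None had both Klrg1 and Cx3cr1, against 14.4%. These shares were taken in full counts, where deeper cells more often reach a number of UMIs or markers. By level Emb was at 579 against 253 CPM. All 78 had Ncr1, 98.7% had Klrb1c, and 60.3% had Eomes, which encodes a transcription factor of NK cells, against 68.3%. By level these NK markers were lower, with Ncr1 at 417 against 682 CPM, Klrb1c at 533 against 1082 and Eomes at 110 against 230. Nkg7 (1066 against 2185 CPM) and Tyrobp (1275 against 1972 CPM), also NK markers, were lower as well. Il7r (90.5 against 29.3 CPM) and Tmem176b (79.0 against 11.2 CPM) were higher, and Klrg1 (4.44 against 114 CPM) was lower. The cells were deep, with a median of 14048.5 UMIs against 6871, and 20.5% had at least 2 T cell markers, against 7.99%, so that the share of doublets among them was not tested. The 211 cells with Gzmk were set beside cells without it in the same way. Gzma was at 7404 against 9581 CPM in cells without Gzmk, Gzmb at 652 against 1263 (log2 -0.95) and Prf1 at 463 against 814 (-0.81). Gzmc was at 7.43 against 78.9 CPM, but 8 cells held 50% of its UMIs, so this difference can rest on a few cells. Over thinned cells r of Gzmc and Gzmk was -0.02, and 0.03% of cells had both. Gzmc was found in 3.39% and Gzmk in 2.88% of these cells, so few could hold both and the overlap says little. Cells with both Itga1 and Pmepa1 made up 35.5% of the 211 cells with Gzmk, against 15.8%.

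Among cells of 1 group the 3 abundant genes went together. Pearson's r of log2(thinned count + 1) was 0.40 to 0.55 for Gzma and Prf1, 0.35 to 0.54 for Gzma and Gzmb, and 0.33 to 0.49 for Gzmb and Prf1 over the 6 groups, while the pairs with a sparse granzyme lay between -0.20 and 0.10. Cells of 1 group share a library and a preparation, so these values are a description. Averaged over the groups, the genes closest to Gzma in single cells were Prf1 (0.46), Nkg7 (0.44), which encodes a granule membrane protein, and Gzmb (0.42), and Actb joined the list for Gzmb and Prf1. Over the 6 group levels, a small number of points of 3 libraries, Gzma was most like S100a4 (r = 0.99), Ly6c2 (0.97) and Tmem37 (0.97), and Prf1 like Car5b (0.98), Klf2 (0.96) and Ywhaq (0.96). Gzmb was most like Serpinb9b (0.89), Pabpc4 (0.88) and Erh (0.84). Gzmc was most like Lgals3bp, Inpp4b and Mapkapk3, and Gzmk like Inpp4b, Grina and Cotl1.

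Genes that act with granzymes were counted from lists, over genes of at least 50 CPM in either group. In lung at 14 days none of 4 such genes of the 6 listed for processing and storage of granzymes was past 1.5-fold, with a median log2 ratio of 0.16. Srgn, which encodes serglycin, was at 1202 against 808 CPM (0.57), and Ctsc, which encodes cathepsin C, had -0.43. Of 4 such granule genes of 7 listed, Rab27a, a GTPase of granule docking, was higher (0.64) and Stx11, a fusion protein, lower (-0.68), and Nkg7 had -0.36. Of 4 serpin inhibitors of granzymes 1 was lower, Serpinb9, the inhibitor of granzyme B, at 519 against 889 CPM (-0.78), with a list median of -0.40. Of 9 maturation genes 3 were lower, namely Itgam (-0.74), Klrg1 (-0.75) and Zeb2 (-1.03), with a median of -0.47, against a median of -0.25 over all genes. This list mixes genes of mature cells with genes of less differentiated cells, Cd27 and Emb, so its count and median have no direction along maturation. Of all genes of at least 50 CPM, 4.47% were higher and 13.4% lower. Below 50 CPM, Ctsh, which encodes cathepsin H, had 37 against 5 UMIs (2.62, 1.27 to 4.33) and Cd63, which encodes a granule membrane protein, 63 against 15 UMIs (1.81, 0.98 to 2.73). Of genes of 1 to under 50 CPM 8.93% were higher, and the part of other cell types in these few UMIs was not tested.

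In blood at 14 days 1 of the 4 inhibitors was past the fold, Serpinb9b at 156 against 82.1 CPM (0.93), and 2 of 9 maturation genes were lower, Zeb2 (-0.59) and Emb (-0.68), beside 0.564% of all genes higher and 3.02% lower. Within the fold, Cx3cr1 (0.50) and Klrg1 (0.18) were above 0. Cd27 (-0.41), Itgam (-0.43), Tbx21 (-0.40), Eomes (-0.51) and Prdm1 (-0.05) were below it. Below 50 CPM, Ctsh had 22 against 5 UMIs (2.96, 1.52 to 4.72) and Cd63 35 against 20 UMIs (1.63, 0.80 to 2.50). Of genes of 1 to under 50 CPM 4.76% were higher in this comparison. Among the myeloid markers Lyz2 was at 89.3 against 0.60 CPM, in 0.43% of cells, and S100a9 at 0 against 13.3 CPM. The part of other cell types in these few UMIs was not tested. At 6 h no listed gene of at least 50 CPM was past the fold in lung or blood. Among the sparser ones, Ctsh had 19 against 5 UMIs in blood (2.37, 0.90 to 4.14) and 18 against 5 in lung (1.23, -0.25 to 3.02), and Cd63 in lung had 14 against 15 UMIs (-0.71, -1.87 to 0.44). In naive mice 3 of the 4 inhibitors were higher in lung than in blood, namely Serpinb9 (1.17), Serpinb6b (0.71) and Serpinb9b (0.61), with 2 of the 4 at 6 h and none at 14 days. Of all genes of at least 50 CPM 7.67%, 7.19% and 6.06% were higher in lung in the 3 libraries. Below 50 CPM, Ctsl, which encodes cathepsin L, was higher in lung in each library (1.29, 1.24 and 1.04). Of genes of 1 to under 50 CPM 8.39%, 8.07% and 9.22% were higher in lung. At 14 days Srgn was higher in lung than in blood (0.91), and Nkg7 (-0.60) and Unc13d (-0.68), which encodes a priming factor of granule release, were lower. Of all genes of at least 50 CPM 3.4% were lower in lung at 14 days. Of the 9 maturation genes 3 were lower there, Klrg1 (-1.01), Cx3cr1 (-0.98) and Zeb2 (-1.002), and 1 was higher, Emb (2.66). Genes of dissociation stress summed to 1330 to 1354 CPM in the 3 lung groups and 313 to 356 CPM in the 3 blood groups, with Junb making up most of the sum, and their part in differences between the tissues was not tested.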

How the data were processed

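The authors deposited raw UMI counts per gene and hashtag for all barcodes of 3 libraries (10x Genomics 3′ v3.1, GRCm38.p6 with GENCODE M23 per the labels). The labels name Cell Ranger 7.0.1 and the matrix header 7.1.0, and Seurat 5.0 is named for the study's own clustering, which was not used here. Barcodes with 800 to 5000 genes and at most 6% mitochondrial counts were kept, and a barcode was given to the tissue whose hashtag held at least 90% of its tag counts, which left 2.08% to 4.08% of barcodes unassigned. No doublet caller was run, so doublets of 1 tissue remain and those of different tissues fell to the hashtag rule. The hashtag pairing with tissues follows the order of naming in the methods. Counts were summed per group and divided by all gene UMIs to give CPM, with exact Poisson intervals for levels, exact conditional binomial intervals for ratios and exact binomial intervals for shares, all at 95%. Medians over genes and the share past 1.5-fold used genes of at least 50 CPM in either group. For equal depth, cells were thinned to 3000 UMIs. An upper limit on free RNA was set by non-NK marker genes with at least 20 counts in near-empty barcodes, those holding 100 counts or fewer. Each group is 1 library and 1 hashtag, so no test was made. Python 3.11.15, numpy 2.4.6, scipy 1.17.1, pandas 2.3.3 and matplotlib 3.10.9 were used, and the code was checked on simulated counts. The members, gene lists and rules were chosen with earlier results of these data known. All 6 genes are described; for each, the 3 genes of at least 50 CPM in their highest group and a log2 range of at least 0.5 with the highest r over the 6 groups were named (those of Gzmm are not reported here), and the 3 with the highest mean r over cells where it reached 0.2. The text also names genes of the pathway lists past 1.5-fold, or needed beside a member.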

Additional observations from a re-analysis of the deposited data

Results flagged for a closer look

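Some genes moved one way in one tissue or time point and the other way in another, beyond counting error. None of these differences was tested, since each group is 1 library and 1 hashtag. Between naive and 14 days the log2 ratio of Gzma was -0.26 in lung and 0.36 in blood. The lung value was close to that of the median gene (-0.25). Measured from this median Gzma was at -0.01, so its fall was no larger than that of a typical gene. The blood value measured the same way was 0.56, so the opposite directions held only for the unadjusted ratios. Lung over blood, Gzma was at 0.056 in naive mice and at -0.57 at 14 days. The same comparison gave 0.31 and -0.17 for Gzmb, -0.72 and 1.87 for Gzmk, and 0.18 and -0.64 for Prf1. The naive value of Gzmk rested on 36 and 76 UMIs.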

How the results depend on the processing

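No paired analysis was possible because each time point is 1 library, and leaving out a replicate could not be run for the same reason. Of 13 log2 ratios past 1.5-fold, 9 stayed past it under every alternative planned. The number of genes past the fold went from 1 to 0 (lung, 6 h over naive) and from 1 to 0 (naive lung over blood) when each cell's own CPM was averaged, from 1 to 2 (lung, 6 h over naive) without the 5% of cells with the most UMIs, from 1 to 2 (blood, 6 h over naive) with free RNA subtracted, from 1 to 2 (naive lung over blood) on thinned counts, and from 1 to 0 there without cells with T cell markers. Among alternatives chosen after seeing the data, the number in lung at 6 h was 0 without cells with at least 3 ILC1 markers. It was 2 there without the 10 cells richest in each gene. In blood at 6 h it was 2 without those 10 richest cells and 2 at naive class shares. In naive lung over blood it was 2 without the ILC1 marker cells, and in lung over blood at 6 h it was 1 without the 10 richest cells. Calls lost were Gzmc in lung at 6 h (0.56), Prf1 in lung at 14 days relative to the median (-0.55), Gzmk in naive lung over blood (-0.52, -0.52 and -0.40), and Prf1 in lung over blood at 14 days (-0.57, -0.55, -0.57 and -0.57). Gzmc in lung at 14 days ranged from 3.20 to 4.97 over naive and from 2.06 to 3.88 over blood. Gzma in lung over blood at 14 days ranged from -0.65 to -0.47. Gzmk in blood at 14 days over naive ranged from -0.36 to 0.65. Both lay within the fold in the main setting and passed it at the far end of the range. Split on thinned counts, the following log2 ratios of a class over the rest changed sign: Gzmk in Cd27- Itgam+ cells of naive lung (-0.17), Gzmc in Cd27- Itgam- cells of blood (-0.56 naive, 1.33 at 6 h, 0.028 at 14 days) and Gzmc in Cd27+ Itgam- cells of lung at 14 days (-0.22). The cause of these changes was not tested.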

Other observations

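In lung at 6 h, 53 cells carried at least 2 of 5 cell cycle genes (Mki67, Top2a, Birc5, Ccnb1 and Cdk1), and the other groups had 25 to 42 such cells, too few to be summarised. These 53 cells had 8807 CPM of Gzma, 703 CPM of Gzmb and 863 CPM of Prf1, with log2 ratios over the rest of the group of -0.41 (95% CI -0.44 to -0.37), -0.83 (-0.96 to -0.70) and -0.67 (-0.79 to -0.55). Gzmm was the exception at 35.4 CPM, with a ratio of 1.56 (0.91 to 2.14) over the rest on 25 UMIs. In the whole group 2 cells had at least 10 Gzmm UMIs, with a maximum of 12, so this level can rest on a few cells. The median depth of the 53 cells was 12301 UMIs. Cells with at least 2 T cell markers numbered 178 in naive lung and 302 in lung at 14 days, and in the latter they had 6555 CPM of Gzma against 9777 CPM in the rest.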
